A study of Mus musculus with 8 samples.

Results

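The nuclear genes for the subunits of the mitochondrial respiratory chain and of ATP synthase were followed in lung mesenchymal cells of bleomycin-treated and control mice. Members were chosen by symbol, by a rule that used no levels but was set with earlier results of these data known. They were the Ndufa, Ndufb, Ndufc, Ndufs and Ndufv genes with a number, Sdha to Sdhd and the Uqcr genes. The Cox4 to Cox8 genes except Cox4i2 and the Atp5 genes were also members. A gene counted where at least 1 row of the deposited table was annotated to it alone, and where several rows were, the brightest by its mean over the 8 arrays was used. This gave 78 members among 22180 genes tested: 32 of complex I, 4 of complex II, 7 of complex III, 16 of complex IV, 17 of ATP synthase, and 2 annotated pseudogenes, Atp5c1-ps and Uqcrh-ps1. Another 10 rows that subunit genes share with a second gene were left out, so Ndufs6, Ndufb2, Ndufb4, Cox6c and Uqcr10 have no member row.

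The 4 bleomycin arrays hold RNA from C57BL/6J mice, 11 weeks old and kept free of specific pathogens, that had been given bleomycin into the trachea. The 4 control arrays hold RNA from mice of the same strain, age and housing that had been given phosphate-buffered saline by the same route. In both groups, cells lacking CD45, CD31 and EpCAM, antigens of leukocytes, endothelium and epithelium, were sorted from the lungs on day 10. No genetic change is given for either group. Bleomycin breaks DNA and is widely used to provoke lung injury and fibrosis in mice. Labelled cRNA made from 100 ng of total RNA was read on 1-colour arrays, and all levels below are deposited values taken as log2 intensity. Nothing in the labels tells whether the 4 replicates of a group were separate animals. The p-values therefore cover the scatter between these arrays alone, which may be technical.

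Complexes I and II pass electrons from NADH and succinate to ubiquinone, complex III passes them to cytochrome c, and complex IV passes them to oxygen. Complexes I, III and IV pump protons across the inner membrane, and ATP synthase uses the returning protons to make ATP. Most subunits are encoded in the nucleus and the remainder in mitochondrial DNA, and some complex IV subunits exist in a widely expressed form and a form restricted to muscle or testis. The transcription factors NRF1, the ETS factor GABP and YY1 are known to bind the promoters of many of the nuclear genes.

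The promoters of 4 members are shown because they belong to the member with the largest rise that had a window (Ndufa11), the largest fall (Cox8b), a complex IV gene with the same mean in both groups (Cox6a1), and the widely expressed paralog of Cox8b (Cox8a), which was added after its values were seen. Each window runs from 250 bases before to 50 bases after the RefSeq transcript start in GRCm38.p6, written 5′ to 3′ on the gene's strand. Capitals mark matches, on either strand, to GCGCATGC for NRF1 and CCGGAAG for ETS factors; AANATGGCG for YY1 had no match in these windows. Where the NRF1 letters read as a palindrome, a match on each strand overlaps the other and the capitals run together.
Ndufa11, chr17:56717512-56717811, plus strand, GRCm38.p6: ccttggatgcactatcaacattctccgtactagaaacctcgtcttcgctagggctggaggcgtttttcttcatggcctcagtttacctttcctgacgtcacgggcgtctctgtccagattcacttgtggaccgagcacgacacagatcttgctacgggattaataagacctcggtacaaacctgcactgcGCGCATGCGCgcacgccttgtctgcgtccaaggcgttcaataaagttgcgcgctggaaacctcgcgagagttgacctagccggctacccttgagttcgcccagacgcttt
Cox8b, chr7:140900397-140900696, minus strand, GRCm38.p6: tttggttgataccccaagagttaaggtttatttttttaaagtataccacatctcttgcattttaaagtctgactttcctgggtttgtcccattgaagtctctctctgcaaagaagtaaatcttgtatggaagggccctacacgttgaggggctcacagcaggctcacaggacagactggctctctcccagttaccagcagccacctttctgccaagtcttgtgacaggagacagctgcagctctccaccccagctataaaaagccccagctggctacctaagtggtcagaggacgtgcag
Cox6a1, chr5:115348909-115349208, minus strand, GRCm38.p6: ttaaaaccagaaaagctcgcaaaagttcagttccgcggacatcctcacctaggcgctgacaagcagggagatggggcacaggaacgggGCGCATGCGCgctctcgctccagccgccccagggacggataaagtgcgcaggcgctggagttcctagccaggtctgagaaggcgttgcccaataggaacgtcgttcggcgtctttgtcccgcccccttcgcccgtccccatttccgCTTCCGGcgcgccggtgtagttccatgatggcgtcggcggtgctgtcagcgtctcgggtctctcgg
Cox8a, chr19:7217567-7217866, minus strand, GRCm38.p6: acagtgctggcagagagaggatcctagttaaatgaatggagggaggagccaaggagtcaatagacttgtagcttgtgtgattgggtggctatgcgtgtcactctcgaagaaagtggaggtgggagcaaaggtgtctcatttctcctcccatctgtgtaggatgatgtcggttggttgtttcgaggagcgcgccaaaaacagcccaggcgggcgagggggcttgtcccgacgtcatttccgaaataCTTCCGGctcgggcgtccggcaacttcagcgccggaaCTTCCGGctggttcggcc
The Ndufa11 window holds the overlapping NRF1 matches starting 60 and 58 bases before the transcript start. That of Cox6a1 holds an NRF1 pair starting 162 and 160 bases before it and an ETS match starting 16 bases before it. Cox8a has an ETS match starting 5 bases before the start and another 32 bases after it, whereas the Cox8b window holds none of the 3 motifs.

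RefSeq windows were matched for 64 of the 78 members, 5 of which had more than 1 window. At least 1 of the 3 motifs stood in a window of 30 members (46.9%), against 18.6% of the 17491 protein-coding genes of the same table and 14.4% of all its 27025 genes. NRF1 letters were found in 10 members (15.6%), against 3.93% of protein-coding genes. ETS letters were found in 17 members (26.6%), against 12.9%, and YY1 letters in 9 members (14.1%), against 3.64%. By complex, a motif was present in 13 of 29 matched genes of complex I, 2 of 3 of complex II, 3 of 4 of complex III, 3 of 13 of complex IV and 9 of 15 of ATP synthase. Among complex IV genes, 3 of 8 widely expressed forms and 0 of 4 tissue-restricted forms had one. Of the members that passed the test between groups, 4 of 6 higher and 0 of 2 lower ones with a window had a motif, against 26 of 56 that did not pass. These are letter matches in one window per start, described without a test.

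Markers of other cell types differed between the groups. Mesenchymal markers were bright in every array, with a mean of 11.02 to 11.27 over 11 genes in bleomycin arrays and 10.33 to 10.58 in control arrays; 8 of them rose and 2 fell. The 12 blood endothelial markers averaged 7.40 to 7.97 in bleomycin and 8.37 to 9.47 in control arrays, with 11 lower. The 14 alveolar epithelial markers averaged 6.60 to 7.32 in bleomycin and 7.93 to 8.72 in control arrays, with 11 lower, so such transcripts were measured in both groups despite the gate. Control replicates 1 and 2 stood highest for both lists, at 9.35 and 9.47 for endothelium and 8.72 and 8.71 for alveolar epithelium. The 5 airway epithelial markers averaged 5.48 to 6.38 in bleomycin and 7.05 to 7.71 in control arrays, with 3 lower, and the 12 leukocyte markers averaged 6.38 to 6.65 in bleomycin and 6.19 to 6.53 in control arrays, with 5 higher and 1 lower. In bulk RNA, fewer cells of a type and less RNA per cell cannot be told apart. The part of these cell types in the subunit results was not tested. The fits without control replicates 1 and 2 and with a marker covariate, given below, cannot tell it from treatment. For endothelial and alveolar markers, every bleomycin array stood below every control array, control replicates 3 and 4 included.

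Bleomycin treatment went with small differences in the subunit genes. The test was limma on all 22180 genes, two-sided, with Benjamini-Hochberg adjustment and a threshold of 0.05. It called 7 members higher (Atp5mpl, Ndufa11, Cox7b, Atp5g2, Atp5md, Cox6b1 and Ndufa4) and 2 lower (Cox8b and Cox6b2), and 69 did not pass. Of all genes tested, 9.12% were called higher and 8.24% lower, and 17.4% passed in either direction, against 11.5% of the members. With each array centred on its median, 7.32% of all genes were higher and 10.4% lower, and the members' calls were 7 and 3. The 4 bleomycin arrays lay wholly above the 4 control arrays for 15 members and wholly below them for 4, where 12.5% and 11.0% of all genes did, 23.5% in either direction. Called higher were 8.97% of the members, close to the 9.12% of all genes, and called lower 2.56%, below the 8.24%. These shares, and that of positive differences below, are not matched for level. Members averaged 7.557 in bleomycin and 7.48 in control arrays, against 5.749 and 5.721 for all genes. With the dimmest 50% of genes left out, 18.4% of the genes kept were higher and 18.8% lower.

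The differences were mostly positive and narrow. The difference, bleomycin minus control on the log2 scale, was positive for 56 members (71.8%), against 54.8% of all genes, with a median of 0.103 and quartiles of -0.029 and 0.207. Over all genes the median was 0.027, with quartiles of -0.138 and 0.184. With each array centred on its median, 49 members (62.8%) and 46.0% of all genes were positive, and the medians were 0.053 for members and -0.023 for all genes. A difference smaller than 0.3 in size was found for 67 members (85.9%), against 73.9% of all genes, and one above 0.5 for 4 members (5.13%), against 11.9%. Of the 69 members that did not pass, 59 (85.5%) had a 95% interval within 0.5 of zero on both sides, and all 69 had one within 1. Among all genes that did not pass, 73.6% had an interval within 0.5 and 98.7% within 1. The farthest bound was that of Atp5d, at 0.93. In the plot of all members by complex, Cox8b is the single point beyond 1.

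**Figure D1:**
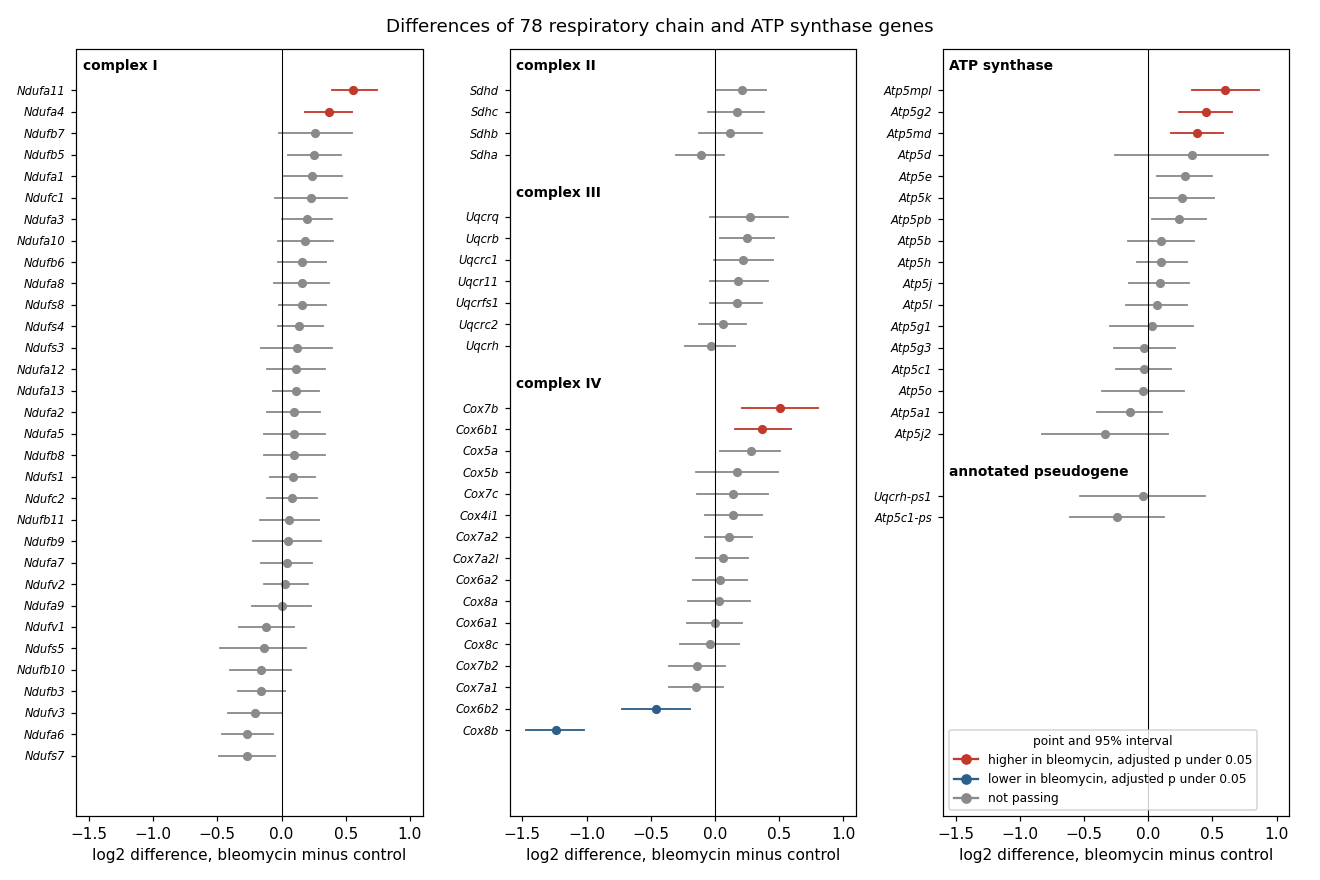
Log2 difference of each of the 78 members, bleomycin minus control (horizontal axis), by complex and ordered by size, with its 95% interval as a line. Red marks the 7 members higher in bleomycin, blue the 2 lower, and grey the 69 that did not pass; most points lie between -0.3 and 0.3.

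In complex I, as grouped by symbol, 2 of 32 members rose, Ndufa11 and Ndufa4, and none fell. At an unadjusted p below 0.05, 5 were higher and 3 lower in limma. The median difference was 0.103 and the range -0.27 to 0.56. Ndufa11, an accessory subunit of the membrane arm, had levels of 8.76, 8.76, 8.73 and 8.73 in bleomycin arrays, against 8.13, 8.17, 8.13 and 8.29 in control arrays. The lowest bleomycin array stood above the highest control array by more than the whole range of either group. Its difference was 0.56 ± 0.08 (SE, n = 4 per group), or 1.48-fold, with a limma adjusted p of 0.000945. A second, dimmer row for the gene gave 0.24 ± 0.22, and the mean of both rows 0.40 with a limma adjusted p of 0.0604.

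Ndufa4 carries a complex I name, and its product is now assigned to complex IV. The counts and medians here place Ndufa4 with complex I, by its symbol, and not with complex IV. Its levels were 10.18, 10.06, 10.22 and 10.22 in bleomycin arrays and 9.81, 9.71, 9.77 and 9.92 in control arrays, with no overlap. The difference was 0.37 ± 0.08, or 1.29-fold, with a limma adjusted p of 0.0139.

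The 6 core subunits of complex I, which carry the flavin and the iron-sulphur clusters or hold them in place, had a median difference of 0.06, and none passed (unadjusted, 0 higher and 1 lower in limma). Ndufs7, which binds the last cluster before ubiquinone, is named here after its values were seen. It had 8.95, 8.84, 9.03 and 9.17 in bleomycin arrays and 9.26, 9.18, 9.20 and 9.41 in control arrays, a difference of -0.27 ± 0.10 with a limma adjusted p of 0.0942. Every bleomycin array was below every control array, though bleomycin replicate 4 nearly met control replicate 2. The accessory subunit Ndufa6, also picked after its values were seen, was alike: 7.69, 7.66, 7.67 and 7.67 in bleomycin against 7.82, 7.86, 8.12 and 7.95 in control, -0.27 ± 0.09 and a limma adjusted p of 0.0671. With each array centred on its median it passed, at -0.32 and 0.037, and it passed in 3 other alternative fits; Ndufs7 passed in 1, with the dimmest 50% of genes left out. The brightest member of the complex, Ndufb9, did not separate the groups: 10.99, 10.91, 10.54 and 10.64 in bleomycin and 10.80, 10.75, 10.55 and 10.80 in control, 0.05 ± 0.12. In both groups of Ndufb9 the lowest array was replicate 3.

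No member of complex II passed, and the 4 genes, which encode the whole enzyme, differed in sign. At an unadjusted p below 0.05, 1 was higher in limma, Sdhd. Sdha, the flavoprotein, had 9.68, 9.73, 9.86 and 9.79 in bleomycin arrays and 9.91, 9.79, 9.90 and 9.92 in control arrays, a difference of -0.11 ± 0.08 with overlapping groups. Sdhb, the iron-sulphur subunit, averaged 7.65 ± 0.19 in bleomycin and 7.53 ± 0.11 in control arrays (SD, n = 4), a difference of 0.12 ± 0.11. For the membrane anchors, Sdhc differed by 0.17 ± 0.10 and Sdhd by 0.21 ± 0.09. Sdhd had 7.90, 7.77, 7.98 and 7.80 in bleomycin and 7.66, 7.56, 7.64 and 7.75 in control arrays, groups that did not overlap, and its limma adjusted p was 0.13. The 95% intervals of the 4 genes reached no farther than 0.40.

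In complex III, 6 of 7 differences were positive, the median was 0.184, and none passed, with 1 higher at an unadjusted p below 0.05 in limma. That gene was Uqcrb, which encodes a small matrix-side subunit and is the brightest of the complex. It had 11.39, 11.24, 11.23 and 11.14 in bleomycin arrays and 11.12, 11.06, 10.96 and 10.86 in control arrays. The lowest bleomycin value was just above the highest control value. Its difference was 0.25 ± 0.09 with a limma adjusted p of 0.0947, and it passed in 3 alternative fits. Uqcrc2, a core protein of the matrix side, had 8.95 ± 0.03 in bleomycin and 8.89 ± 0.09 in control arrays (SD, n = 4), a difference of 0.06 ± 0.08.

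Both members called lower were in complex IV, and both are forms with restricted expression (in some alternative fits Ndufa6 and Ndufs7 of complex I were also called lower). Of the 9 widely expressed forms, 2 rose and none fell (unadjusted, 3 higher and 0 lower in limma), with a median of 0.145. Of the 6 forms known for expression in muscle or testis, none rose and 2 fell (unadjusted, 0 higher and 2 lower), with a median of -0.145. Among these, Cox8c and Cox7b2 were dimmer than the median of rows with no gene, and Cox7a1 was close to it. Rows with no gene were themselves lower in bleomycin, so the sign of such dim members is uncertain. Over all 16 members the median was 0.048, and -0.002 with median centring. Cox7a2l, named like a subunit and known as an assembly factor of supercomplexes, stands in neither group and differed by 0.06 ± 0.09. This grouping of the forms was made after the values were seen, and no difference between the groups of genes was tested.

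Cox7b and Cox6b1 encode small nuclear subunits of complex IV, and both rose. Cox7b had 8.31, 8.16, 7.71 and 7.85 in bleomycin arrays, against 7.61, 7.38, 7.46 and 7.54 in control arrays, a difference of 0.51 ± 0.13 with a limma adjusted p of 0.025. Its bleomycin arrays were spread widely, replicates 1 and 2 standing well above replicates 3 and 4. The dimmer second row of Cox7b, which lay below the median of rows with no gene, gave -0.39 ± 0.19. Cox6b1 had 8.78, 8.59, 8.46 and 8.50 in bleomycin arrays and 8.29, 8.09, 8.22 and 8.24 in control arrays, a difference of 0.37 ± 0.10 with a limma adjusted p of 0.0242. The groups of Cox6b1 did not overlap. Without 1 array, Cox7b lost its call in 4 of 8 fits and Cox6b1 in 3 of 8.

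Cox8b had the largest difference of all 78 members. It encodes the form of subunit 8 known from heart, skeletal muscle and, in rodents, brown fat. Its levels were 4.43, 4.49, 4.50 and 4.73 in bleomycin arrays, against 5.81, 5.77, 5.92 and 5.63 in control arrays. All bleomycin arrays lay far below all control arrays, and neither group was widely spread. The difference was -1.24 ± 0.10, a level 0.422 times that of control, with a limma adjusted p of 4.5e-05. The bleomycin levels were close to the medians of rows with no gene, 4.20 to 4.35 in those arrays and 4.44 to 4.52 in control arrays, so the size of the fall is uncertain. The call held in each of the 8 fits without 1 array and without both control replicates 1 and 2, where the difference was -1.24. With the mean of the endothelial and alveolar markers as a covariate it was -1.10, with a limma adjusted p of 0.0901.

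Its widely expressed paralog Cox8a had 9.65, 9.39, 9.64 and 9.72 in bleomycin arrays and 9.51, 9.40, 9.61 and 9.76 in control arrays. The values interleaved, with a difference of 0.03 ± 0.11.

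Cox6b2, the form of subunit 6b known from testis, had 7.74, 7.90, 7.63 and 8.18 in bleomycin arrays and 8.20, 8.43, 8.34 and 8.30 in control arrays, while its paralog Cox6b1 rose. The difference was -0.46 ± 0.12 with a limma adjusted p of 0.0272. Bleomycin replicate 4 nearly met the lowest control array, and the call was lost in 5 of the 8 fits without 1 array. The mean of Cox6b2 over the 8 arrays, 8.09, was near the 8.40 of Cox6b1. Whether this row reads the testis form alone was not tested.

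In subunits 6a and 7a neither form separated the groups. Cox6a1, the brightest member of the complex and the widely expressed form, averaged 11.70 ± 0.11 in bleomycin and 11.70 ± 0.13 in control arrays (SD, n = 4), with a 95% interval of -0.22 to 0.21. Its muscle form Cox6a2 differed by 0.04 ± 0.10. The muscle form Cox7a1 averaged 4.46 ± 0.11 in bleomycin and 4.61 ± 0.12 in control arrays, close to rows with no gene, and its widely expressed counterpart Cox7a2 differed by 0.11 ± 0.08. For subunit 4, the common form Cox4i1 averaged 8.44 ± 0.05 in bleomycin and 8.30 ± 0.19 in control arrays, a difference of 0.14 ± 0.10, and Cox4i2, not counted as a member, is given below. Of the 7 muscle markers, Des, the intermediate filament of muscle, rose by 1.33 and Tnnt2, cardiac troponin T, by 1.13. Ckm, Myh6, Myl1, Actn2 and Myh11 did not pass, with differences of 0.03, -0.21, 0.05, -0.12 and 0.25, and Myl1 and Actn2 were dimmer than the median of rows with no gene.

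**Figure D2:**
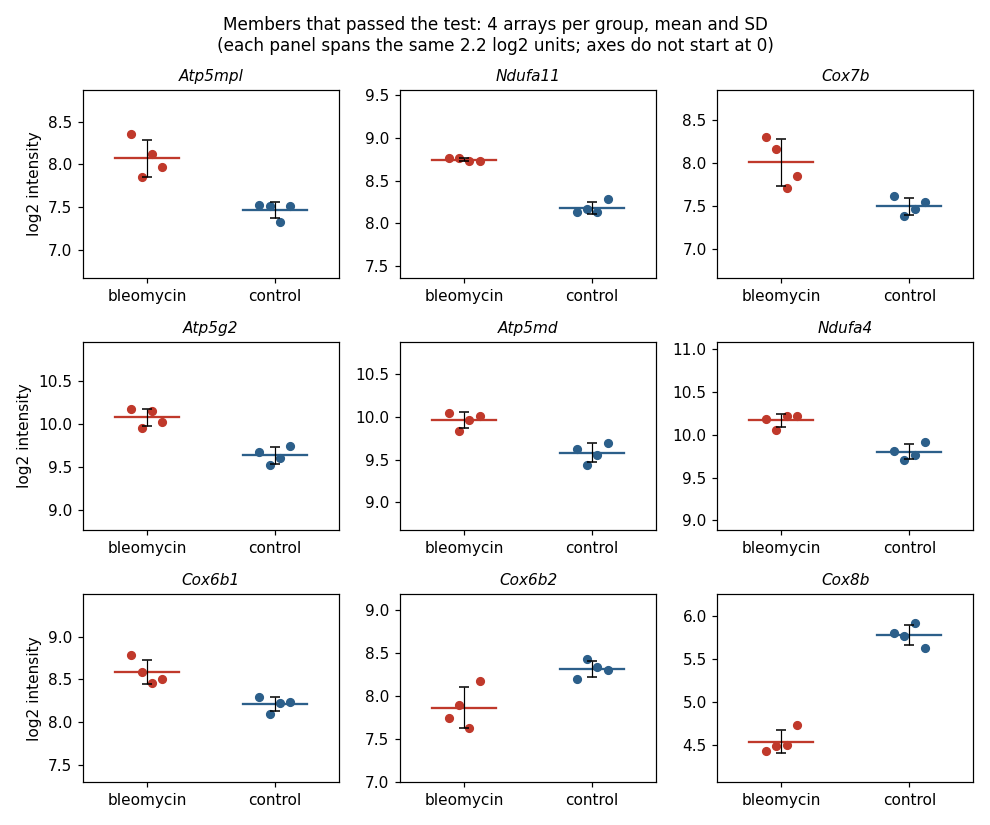
Log2 intensity (vertical axis) of the 9 members that passed the test, in 4 bleomycin arrays (red) and 4 control arrays (blue), with group means as bars and the SD as black whiskers. The groups do not overlap in any panel, and each panel spans the same 2.2 log2 units without starting at 0.

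In ATP synthase, 3 of 17 members rose and none fell (unadjusted, 6 higher and 0 lower in limma), and the median difference was 0.099. The difference between parts of the enzyme was not tested, and its parts were grouped after the values were seen. Of the 5 small membrane subunits 2 rose, with a median of 0.261, and of the 3 genes for the c-ring 1 rose. None of the 5 genes of the F1 head and stalk passed, with a median of 0.099, nor did any of the 4 peripheral stalk genes, with a median of 0.095 (unadjusted, 1 higher and 0 lower in limma in each).

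Atp5mpl encodes the 6.8 kDa proteolipid and Atp5md the subunit known as DAPIT, both small proteins of the membrane domain. Atp5mpl had 8.35, 7.85, 8.12 and 7.97 in bleomycin arrays, against 7.53, 7.51, 7.33 and 7.51 in control arrays. No bleomycin array came near the control range, and the difference of 0.60 ± 0.12, or 1.52-fold, was the largest rise among members, with a limma adjusted p of 0.0057. Atp5md had 10.05, 9.84, 9.96 and 10.01 in bleomycin arrays and 9.63, 9.44, 9.56 and 9.70 in control arrays. The difference was 0.38 ± 0.09, or 1.30-fold, with a limma adjusted p of 0.0163, and the groups did not overlap.

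Atp5g1, Atp5g2 and Atp5g3 encode the same mature c subunit, which forms the rotating ring. Atp5g2 had 10.18, 9.96, 10.15 and 10.03 in bleomycin arrays and 9.67, 9.52, 9.60 and 9.75 in control arrays. It rose by 0.45 ± 0.09, or 1.36-fold, with a limma adjusted p of 0.00759, and its second row gave 0.40 ± 0.09. Atp5g1 averaged 5.13 ± 0.14 in bleomycin and 5.10 ± 0.30 in control arrays (SD, n = 4), a difference of 0.03 ± 0.15. Atp5g3 averaged 7.64 ± 0.19 in bleomycin and 7.66 ± 0.08 in control arrays, a difference of -0.03 ± 0.11. The differences between these genes were not tested.

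The catalytic subunit beta, Atp5b, the brightest of the complex, had 10.96, 10.67, 11.21 and 10.92 in bleomycin arrays and 10.79, 10.74, 10.90 and 10.94 in control arrays, a difference of 0.10 ± 0.12 with overlapping groups. Atp5e, the F1 subunit epsilon, and Atp5k, the membrane subunit e, had bleomycin arrays wholly above control arrays without passing. They differed by 0.29 ± 0.10 and 0.26 ± 0.11, with limma adjusted p-values of 0.0674 and 0.146, and Atp5e passed in 3 alternative fits. Both are named after their values were seen.

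The mean over complex I was 7.731 ± 0.044 in bleomycin and 7.65 ± 0.058 in control arrays (SD, n = 4). Over complex II it was 8.419 ± 0.095 in bleomycin and 8.323 ± 0.089 in control arrays, and over complex III 7.938 ± 0.092 in bleomycin and 7.778 ± 0.081 in control arrays. Over complex IV it was 6.929 ± 0.051 in bleomycin and 6.941 ± 0.032 in control arrays, and for each of these complexes the groups overlapped. The mean over ATP synthase was 7.973 ± 0.094 in bleomycin and 7.835 ± 0.069 in control arrays, and the groups did not overlap; the difference was 0.138, and bleomycin replicate 1 stood above the other arrays. All genes tested also separated, by 0.028, with 5.749 ± 0.005 in bleomycin and 5.721 ± 0.011 in control arrays. Taken as medians over genes in place of means, the bleomycin arrays lay wholly above the control arrays for all members, by 0.165, for complex I, by 0.089, for ATP synthase, by 0.307, and for all genes, by 0.05. The groups overlapped for complexes II, III and IV in medians as well.

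**Figure D3:**
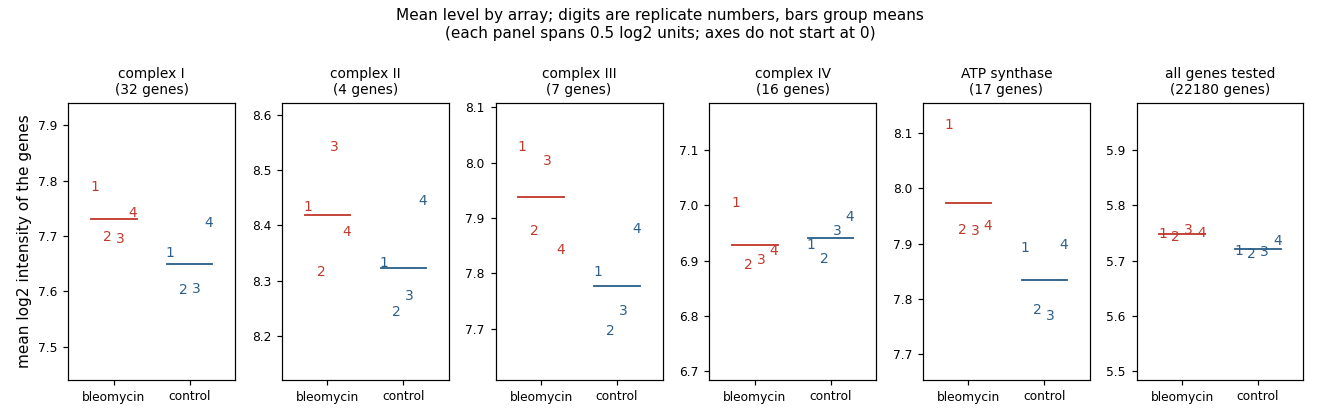
Mean log2 intensity over the genes of each complex and over all genes tested (vertical axis, each panel spanning 0.5 without starting at 0), for bleomycin arrays (red) and control arrays (blue). Digits are replicate numbers and bars group means; the groups separate for ATP synthase and for all genes, and overlap for complexes I to IV.

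The 6 members that were dimmer than the median of rows with no gene, Cox7b2, Atp5c1-ps, Cox8c, Uqcrh-ps1, Ndufs5 and Atp5j2, all had negative differences, from -0.34 to -0.04, and none passed (0 at an unadjusted p below 0.05 in limma). Ndufs5 also has a brighter row that it shares with its pseudogene Ndufs5-ps, with 6.98 ± 0.14 in bleomycin and 6.83 ± 0.21 in control arrays (SD, n = 4), a difference of 0.14 ± 0.13. The rows with no gene were themselves lower in bleomycin, with medians of 4.20 to 4.35, against 4.44 to 4.52 in control arrays. Without these 6 members the median difference was 0.109.

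Genes that help to build the complexes passed in 11.9% of cases, against 17.4% of all genes, shares that are not matched for level. The 17.4% stands beside the calls of the lists below as well. Of 42 assembly factors 3 rose and 2 fell, with a median of 0.088; with median centring 2 were higher and 4 lower. Uqcc2, a complex III assembly factor, rose by 0.68 ± 0.13, with 7.11, 7.36, 7.14 and 7.09 in bleomycin and 6.67, 6.14, 6.52 and 6.67 in control arrays and a limma adjusted p of 0.00512. Sdhaf2, which helps insert flavin into Sdha, rose by 0.37 ± 0.09. Surf1, a complex IV assembly factor, fell by 0.50 ± 0.13 and Uqcc1, the partner of Uqcc2, fell by 0.30 ± 0.08, with limma adjusted p-values of 0.0216 and 0.0343. Uqcc1 and Uqcc2 therefore had opposite signs, and the call of Uqcc1 was lost in 7 of 8 fits without 1 array and that of Surf1 in 4 of 8.

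None of the mitochondrially encoded subunits passed. Of 13 genes 10 had a row, and their differences ran from -0.18 to 0.00 with a median of -0.037 (unadjusted, 0 higher and 1 lower in limma). The gene lower without adjustment was ND3, with 12.60, 12.51, 12.46 and 12.58 in bleomycin and 12.78, 12.65, 12.70 and 12.74 in control arrays, groups that did not overlap, and a limma adjusted p of 0.155. ND4, the brightest, averaged 13.37 ± 0.03 in bleomycin and 13.37 ± 0.06 in control arrays (SD, n = 4), with an interval of -0.18 to 0.17. The highest value in the whole table was 13.58, and whether such bright rows respond fully was not tested.

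Among 19 genes for electron carriers and ubiquinone synthesis, 2 fell and none rose (unadjusted, 0 higher and 3 lower in limma). The median was -0.026, and with median or quantile scaling 3 were lower. Etfa, which carries electrons from fatty acid oxidation towards ubiquinone, had 8.44, 8.39, 8.60 and 8.51 in bleomycin and 9.36, 9.12, 9.10 and 9.17 in control arrays. No arrays overlapped, and it fell by 0.71 ± 0.09 with a limma adjusted p of 0.000683. Coq10b, a ubiquinone-binding protein, fell by 0.42 ± 0.10. Of 22 tricarboxylic acid cycle and pyruvate dehydrogenase genes, 1 rose and 1 fell, with a median of -0.062. Both were kinases that inhibit pyruvate dehydrogenase: Pdk3 rose by 0.36 ± 0.10 and Pdk4 fell by 0.85 ± 0.22. Each lost its call in several fits without 1 array, 6 of 8 for Pdk3 and 4 of 8 for Pdk4.

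Of 19 regulators of mitochondrial biogenesis, 2 rose and 1 fell, with a median of 0.086. Myc, a growth-related transcription factor, rose by 0.99 ± 0.21 with a limma adjusted p of 0.00896. Ppard, a nuclear receptor for fatty acids, rose by 0.46 ± 0.10. Nrf1, the factor whose motif was searched above, fell by 0.38 ± 0.10 with a limma adjusted p of 0.0311, a call lost in 7 of 8 fits without 1 array. Among 24 carriers, porins and cristae genes 1 rose and none fell (unadjusted, 4 higher and 2 lower in limma), with a median of 0.032 that was -0.018 with median centring. The riser was Slc25a5, an ADP/ATP carrier, with 11.06, 10.64, 10.86 and 10.78 in bleomycin and 10.30, 10.14, 10.22 and 10.29 in control arrays, 0.60 ± 0.10 and a limma adjusted p of 0.0031.

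Of 71 mitochondrial ribosomal protein genes, 9 rose and none fell (unadjusted, 18 higher and 2 lower in limma), with a median of 0.10 beside 0.103 for the subunits; with median centring 7 were higher and 1 lower. Mrpl52 and Mrpl54 led with 0.59 ± 0.09 and 0.55 ± 0.12. All 9 proliferation markers measured rose, with a median of 2.035 and means per array of 6.55 to 7.49 in bleomycin and 4.80 to 5.06 in control arrays.

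Among genes named like members without being counted, Ndufa4l2, a relative of Ndufa4 known to respond to hypoxia, averaged 6.87 ± 0.11 in bleomycin and 7.24 ± 0.14 in control arrays (SD, n = 4). It fell by 0.37 ± 0.10 with a limma adjusted p of 0.0288, a call lost in 5 of 8 fits without 1 array. Cox4i2, the hypoxia-responsive lung form of subunit 4, had 5.36, 5.61, 5.75 and 5.64 in bleomycin and 6.27, 6.17, 5.79 and 5.83 in control arrays, all bleomycin arrays below, a difference of -0.42 ± 0.13 with a limma adjusted p of 0.0538. It was called in 8 of 24 alternative fits, among them median centring and quantile normalization. Ndufab1, the acyl carrier protein of complex I, differed by 0.07 and Cyc1, cytochrome c1 of complex III, by -0.03.

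**Figure D4:**
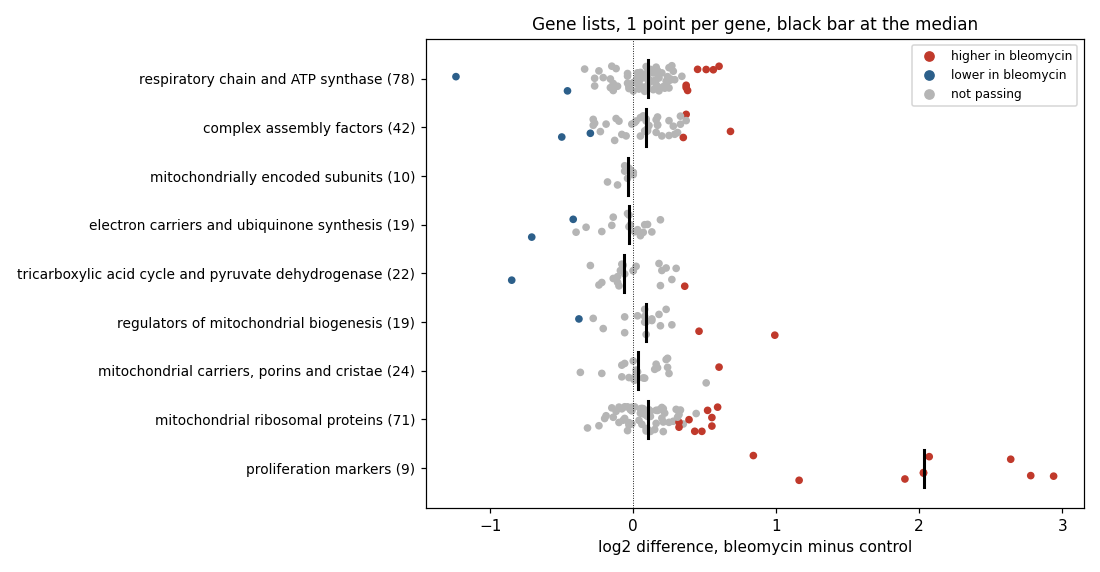
Log2 difference, bleomycin minus control (horizontal axis), of every gene in each list, with the list's median as a black bar and the number of genes in brackets. Red points are higher in bleomycin, blue lower and grey did not pass; the mitochondrial lists centre between -0.062 and 0.103, and proliferation markers at 2.035.

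Leaving out control replicates 1 and 2, the arrays with the most endothelial and alveolar signal, 2 members remained higher, Ndufa11 and Atp5mpl, and 1 lower, Cox8b, and 9.91% of all genes passed. The differences of the members that lost their call stayed close to those with all arrays: Atp5g2 had 0.40, Atp5md 0.33, Ndufa4 0.33, Cox7b 0.50, Cox6b1 0.35 and Cox6b2 -0.46. When the average of both marker lists entered the fit as a covariate, no member passed in limma (at an unadjusted p below 0.05, 3 were higher and 3 lower). In that fit 0.266% of all genes passed, and the members' median difference was 0.029. The covariate was higher in every control array than in every bleomycin array, so the fit cannot tell the markers from treatment. Differences in that fit were 0.68 for Atp5mpl, 0.48 for Ndufa11, 0.53 for Cox7b, 0.33 for Cox6b1, 0.30 for Atp5md, 0.29 for Atp5g2, 0.27 for Ndufa4, -0.21 for Cox6b2 and -1.10 for Cox8b.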

How the data were processed

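RNA of sorted lung mesenchymal cells was measured on 4 bleomycin and 4 control arrays, grouped by the sample titles. The values deposited by the authors are taken as log2 because they run from 0.24 to 13.58; no scale is named, and how background was corrected, probes summarised and arrays normalized is not given in the sources used here. Arrays give no read depth, and the precision depends on their number and on the scatter of each row. Of 41345 rows, 23521 were annotated to 1 gene, 1814 to several and 16010 to none, and the brightest of 1 or more rows stood for each of 22180 genes. The test was limma 3.58.1 (lmFit, eBayes; R 4.3.3), with p-values two-sided and adjusted by Benjamini-Hochberg across those genes, at a threshold of 0.05; the procedure was tested on simulated data. Intervals are limma's 95% intervals. Figures were drawn with matplotlib 3.10.9.

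Members and lists were chosen with earlier results of these data known. Named by rule were the passing members (at most 4 rises and 4 falls per complex), the brightest member of each complex (the 2 brightest where none passed), the Sdh genes, tissue-specific paralogs, and per list the passing genes with the 2 largest rises and falls or, where none passed, the brightest. Other names are marked as chosen after their values were seen, and the grouping by role was also made then. Same-numbered bleomycin and control replicates had correlations of deviations of 0.129, 0.063, 0.114 and 0.065, so the numbers were not taken as pairs. Across the groups, arrays of replicates 1 and 2, or of 3 and 4, correlated at 0.063 to 0.129, and arrays of different pairs at -0.14 to -0.067; the labels name no batch, and a block on those pairs is among the alternatives. Alternatives were other normalizations, dim-gene filters, probe set choices, eBayes settings, array weights, thresholds, blocks, left-out arrays and a marker covariate.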

Additional observations from a re-analysis of the deposited data

Results flagged for a closer look

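In 62 groups of 4 arrays (the named members and the complex means), 4 held 1 array far from the other arrays of its group; chance flags about 1 group in 20. Sdha had 9.79 in control replicate 2 and 9.90 to 9.92 in the other control arrays. Sdhb had 7.69 in control replicate 4 and 7.47 to 7.48 in the other control arrays. Atp5mpl had 7.33 in control replicate 3 and 7.51 to 7.53 in the other control arrays, and its rise was called in each of the 8 fits without 1 array. The mean over ATP synthase genes was 8.114 in bleomycin replicate 1 and 7.92 to 7.93 in the other bleomycin arrays; without that array the median difference of the complex was 0.069, against 0.099 with it.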

How the results depend on the processing

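The counts of calls among the 78 members depended on the setting, and the median difference less so. Against 7 higher and 2 lower members, 11 were higher with the dimmest 50% of genes left out. Of the 11090 genes kept in that fit, 18.4% were higher and 18.8% lower, against 9.12% and 8.24% of all genes in the main fit. Ndufs7 and Ndufa6 were called lower in it, Cox6b2 stayed lower, and Cox8b was filtered out as dim. At an adjusted p of 0.01, 3 members were higher and 1 lower (4.86% and 3.96% of all genes). Replicates 1 and 2 alone gave 2 and 1 (3.78% and 3.76%). Replicates 3 and 4 alone gave 0 and 1 (2.27% and 0.992%), with 6 and 3 members at an unadjusted p below 0.05 in limma. Without both control replicates 1 and 2 there were 2 and 1 (5.43% and 4.47%), and with the marker covariate 0 and 0 (0.239% and 0.0271%). With all rows tested, a fit chosen after seeing the data, 6 were higher and 1 lower (4.81% and 6.79% of rows). Without 1 array, 5 to 7 members were higher and 1 to 2 lower, 1 without bleomycin replicate 1 or 3 or control replicate 2, 3 or 4. The median of 0.103 was 0.053 with median centring, as for complex I, 0.029 with the marker covariate, and 0.081 to 0.133 without 1 array. Cox7b had -0.39 with its most variable probe set, the dim second row, and Pdk4 0.24 with the marker covariate; neither passed there. The causes were not tested.

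With the replicate number as a block, 7 members were higher and 2 lower, with a median of 0.103. The same-numbered arrays are not known to be paired. With the pairs 1 with 2 and 3 with 4 as blocks, 9 were higher, Uqcrb and Atp5d among them, and 2 lower, and 20.1% of all genes passed. Of 596 values of the 25 members named by rule under alternatives, 541 kept their direction and side of the threshold or stayed uncalled, 51 lost the call, 3 gained it (all Uqcrb) and 1 reversed. Of the members named after their values were seen, Ndufa6 gained a call in 4 alternatives, Atp5e in 3, Ndufs7 in 1 and Atp5d in 1. Among 16 members not called, 11 changed sign somewhere, so no direction is drawn from them. Members near the level of rows with no gene have uncertain sizes.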

Other observations

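Atp5d, the delta subunit of the F1 stalk, split by replicate number in both groups. It had 8.59, 8.61, 7.57 and 7.72 in bleomycin replicates 1 to 4, and 8.05, 8.17, 7.38 and 7.54 in control replicates 1 to 4. Replicates 1 and 2 averaged 0.80 above replicates 3 and 4. Its difference between bleomycin and control was 0.34 ± 0.27 with a limma adjusted p of 0.445, and 0.0375 when those pairs of replicates entered as a block. A second row of the gene gave -0.05 ± 0.11. The gene was picked after its values were seen.

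None of the 10 rows shared by a subunit gene and another gene passed in the limma fit of all rows. The brightest, shared by Cox6c and a predicted gene, averaged 10.02 ± 0.08 in bleomycin and 9.87 ± 0.08 in control arrays (SD, n = 4). The row shared by Ndufs1 and Ino80dos averaged 5.09 ± 0.25 in bleomycin and 5.54 ± 0.14 in control arrays, with a limma adjusted p of 0.0691, while the row of Ndufs1 alone differed by 0.09.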
